A study of Mus musculus with 2 samples.

Results

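The HoxD cluster and the gene deserts on either side of it were read from maps of open chromatin in the mouse limb at 11.5 days of embryonic development. All regions centred in a window of chromosome 2 (build mm10) were taken and divided by position. The centromeric landscape was chr2:73900001-74650000, the cluster with Evx2 and Hoxd13 to Hoxd1 was chr2:74650001-74770000 (120 kb), and the telomeric landscape was chr2:74770001-75700000. This window held 310 of 174430 peaks in replicate 1 and 377 of 167369 in replicate 2, of which 236 of 118491 were shared, meaning that peaks of both libraries overlapped and were merged. It also held 278 of 151632 and 314 of 143869 hotspots, which are open regions of varied width. Over the named chromosomes their mean width was 352 and 395 bp, but some were narrower than a peak of 150 bp. The window held 10 member genes of 21853 protein-coding genes with an annotated start.

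Open chromatin was mapped by DNase-seq, which sequences the ends left where the enzyme DNase I has cut DNA that is not protected by nucleosomes. The labels give a single group, healthy whole limb tissue of B6NCrl embryos with both sexes pooled, as 2 biological replicates with 1 technical replicate each. No mutant, treatment or other stage was included, forelimb and hindlimb were not separated by the labels, and the labels give neither the number of embryos in a pool nor how far toward the body the limb was cut. Whether the replicates hold equal shares of forelimb, hindlimb and adjoining tissue is therefore unknown and was not tested, which bears on every difference between them. Replicate is therefore set against replicate and HoxD against the rest of each list. With 1 library on each side no test between groups was possible, and the spread between 2 libraries may be biological or technical. In bulk tissue, a site open in few cells and a site weakly open in many cells cannot be told apart.

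Hox genes encode homeodomain transcription factors that give cells their position along the body and limb axes, and they lie in the cluster in the order in which they are used. In the limb bud the HoxD genes are read by enhancers in both flanking deserts. The telomeric landscape is known for driving Hoxd genes in the early and proximal limb, and the centromeric landscape for driving Hoxd13 and its neighbours in the digits. The insulator protein CTCF binds a directional DNA site, and the orientation of such sites is known to bear on which stretches of chromatin contact each other.

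The shared peaks that held an exact CTCF consensus are shown first, because their strand differed between the landscapes. Each line gives 10 bases, the 14-base match in capitals and 10 further bases, on the forward strand of the RefSeq sequence of GRCm38.p6 (mm10). Matches C1 at chr2:74027921-74027934, C2 at chr2:74300448-74300461 and C3 at chr2:74547867-74547880 lay in the centromeric landscape. Matches T1 at chr2:74964537-74964550, T2 at chr2:75055363-75055376, T3 at chr2:75151171-75151184, T4 at chr2:75152690-75152703 and T5 at chr2:75590411-75590424 lay in the telomeric landscape.
C1: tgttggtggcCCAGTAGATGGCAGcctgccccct
C2: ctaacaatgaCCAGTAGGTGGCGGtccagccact
C3: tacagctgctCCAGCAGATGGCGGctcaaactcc
T1: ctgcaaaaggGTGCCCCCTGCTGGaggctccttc
T2: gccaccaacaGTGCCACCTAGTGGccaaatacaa
T3: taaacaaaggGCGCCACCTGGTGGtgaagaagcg
T4: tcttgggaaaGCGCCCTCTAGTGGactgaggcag
T5: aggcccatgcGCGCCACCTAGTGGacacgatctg
C1 to C3 read as the consensus on the forward strand, and T1 to T5 as its reverse complement.

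The next sequences are peaks on which the results below turn, again from the forward strand of GRCm38.p6. From each landscape comes the strongest shared peak between genes that does not border a gene start (chr2:74451736-74451905 and chr2:74964476-74964625). The others are the strongest of 4 shared peaks between the starts of Evx2 and Hoxd13 (chr2:74661896-74662045), the Hoxd10 promoter peak (chr2:74691716-74691885), and the Hoxd13 promoter peak called in replicate 2 alone (chr2:74667916-74668065). Capitals mark words of the consensus sets searched, which are the E-box CAGCTG, the word CAATAAA of the kind bound by group 13 Hox proteins (called HOX13-type, here on the reverse strand) and the CTCF consensus.
Centromeric, between genes: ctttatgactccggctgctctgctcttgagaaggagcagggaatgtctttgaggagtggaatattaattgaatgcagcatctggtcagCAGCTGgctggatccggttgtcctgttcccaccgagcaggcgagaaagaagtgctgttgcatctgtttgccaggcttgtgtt
Between Evx2 and Hoxd13: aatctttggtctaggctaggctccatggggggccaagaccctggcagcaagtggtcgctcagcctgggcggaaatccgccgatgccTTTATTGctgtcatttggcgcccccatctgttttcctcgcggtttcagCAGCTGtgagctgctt
Hoxd13 promoter: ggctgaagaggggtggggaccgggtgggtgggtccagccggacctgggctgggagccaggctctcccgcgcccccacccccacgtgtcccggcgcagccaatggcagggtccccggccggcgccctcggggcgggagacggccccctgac
Hoxd10 promoter: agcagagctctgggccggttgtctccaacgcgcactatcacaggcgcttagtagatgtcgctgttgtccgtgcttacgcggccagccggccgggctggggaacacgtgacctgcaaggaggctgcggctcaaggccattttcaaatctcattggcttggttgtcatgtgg
Telomeric, between genes: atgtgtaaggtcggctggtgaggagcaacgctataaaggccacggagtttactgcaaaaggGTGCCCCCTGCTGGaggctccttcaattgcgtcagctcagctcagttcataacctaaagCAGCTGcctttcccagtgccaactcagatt
No word of these sets was found in the Hoxd10 and Hoxd13 peaks, which says only that those letters are not in these windows.

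Before the results, the libraries differed in ways that touch them. Read depth is unknown, because the lists hold no read counts, so the exact binomial intervals below cover only the error of counting regions, which are not independent of their neighbours. Sequencers are named for replicate 2 alone, as 2 instrument models. All 10 limb mesenchyme markers had a promoter peak in both libraries, as did the forelimb gene Tbx5 and the hindlimb genes Tbx4 and Pitx1, but so did 5 of 5 neural tube genes and, shared between the libraries, 5 of 7 limb ectoderm genes. None of 3 liver genes had a promoter peak in either library. An open promoter is not expression, and 68.4% and 68.7% of all protein-coding genes had such a peak.

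All 3 compartments held more shared peaks per length than the genome, and the cluster the most. The cluster held 39 shared peaks in 120 kb, or 32.5 per 100 kb, which was 7.48 times the density over all named chromosomes (4.35 per 100 kb). Of 22703 tiles of 120 kb along the genome, 0.0396% held as many, and the median tile held 4. This density was not particular to HoxD. On the bounds used below to compare the Hox clusters, HoxA held 41.0 shared peaks per 100 kb and HoxD 29.5. The telomeric landscape held 125 shared peaks in 930 kb, or 13.4 per 100 kb, and 1.1% of 2922 tiles of that size held as many. The centromeric landscape held 72 in 750 kb, or 9.6 per 100 kb, and 8.17% of 3622 tiles of that size held as many. The order was thus cluster, telomeric landscape, centromeric landscape in shared peaks per length, and the same order held in each library taken alone.

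Between the libraries the counts were close in the landscapes and far apart in the cluster. In the centromeric landscape replicate 1 had 107 peaks and replicate 2 had 101. In the telomeric landscape the counts were 151 and 170. In the cluster replicate 1 had 52 peaks and replicate 2 had 106, a ratio of 2.04 (95% interval 1.45 to 2.90 from counting error) where the ratio over all peaks of the named chromosomes was 0.960. Of 3399 tiles of 120 kb with at least 30 peaks in the libraries together, 1.21% had a ratio at least as high and 1.79% one at least as far from the genome-wide ratio in either direction. The central 95% of tiles ran from 0.579 to 1.69, so the cluster lay above that range, and the plot of tile ratios shows its place. Leaving out each member gene in turn gave ratios from 1.76 without Hoxd3 to 2.17 without Evx2, each above the upper end of that range. Below that end lay the ratios over peaks at or above the median signal of their library (1.66), over hotspots (1.67) and without peaks in hotspots of at least 1 kb (1.59). The tile range was computed from all peaks of full tiles, and not for these other sets or for a cluster without a gene. It therefore cannot show whether these alternative ratios are unusual.

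**Figure D1:**
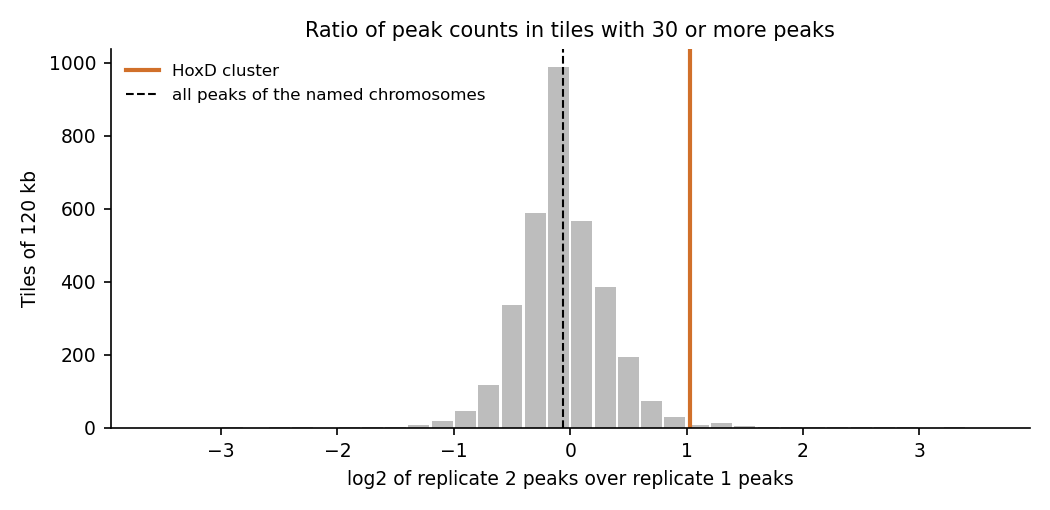
Ratio of replicate 2 to replicate 1 peak counts (log2, horizontal axis) over tiles of 120 kb with 30 or more peaks in the libraries together; the vertical axis counts tiles. The solid line marks the HoxD cluster at a ratio of 2.04 and the dashed line the ratio over all peaks, 0.960; 1.21% of tiles lay at or beyond the cluster.

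Hotspots gave the same direction. In replicate 1, 43 hotspots covered 16.7 kb of the cluster (13.9% of its length), and in replicate 2, 72 hotspots covered 37.4 kb (31.1%), where hotspots covered 1.96% and 2.08% of the named chromosomes. Covered length was therefore 2.23 times as high in replicate 2, against 1.06 genome-wide, 1.16 in the centromeric landscape and 1.23 in the telomeric landscape. The mean width of a cluster hotspot was 389 bp in replicate 1 and 519 bp in replicate 2, so both the number and the width of hotspots were higher.

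Peaks found in a single library followed the same split. A peak is called private here if no peak and no hotspot of the other library overlapped it. In the cluster 6 of 52 peaks of replicate 1 were private (11.5%, interval 4.35% to 23.4%), beside 22.1% of all its peaks. In replicate 2, 58 of 106 were private (54.7%, interval 44.8% to 64.4%), beside 22.7% of all its peaks. By overlap with peaks alone, 39 of 52 peaks of replicate 1 (75%) and 40 of 106 of replicate 2 (37.7%) met a peak of the other library, beside 69.8% and 73.1% over all peaks. The private shares of replicate 2 in the landscapes were 23.8% (24 peaks) on the centromeric side and 20.6% (35 peaks) on the telomeric side, close to that background. Replicate 1 had 22.4% private peaks in the centromeric and 8.61% in the telomeric landscape.

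The private cluster peaks of replicate 2 had lower signals than its other cluster peaks and lay around the median of its list. The signal is the authors' own value for a peak, a whole number with unstated scaling that is used only to order peaks within a list. Private peaks of replicate 2 had signals from 16 to 89 with a median of 38, and the 40 that overlapped a peak of replicate 1 had signals from 32 to 114 with a median of 79. The median over all peaks of replicate 2 was 39. Of the 58, 24 lay in a hotspot at the ceiling of the deposited −log10 q, which is 100, as did 29 of the 40 overlapping peaks, beside 44.7% of all peaks of that library. In replicate 1, 0 of 6 private and 21 of 39 overlapping cluster peaks did, beside 45.7% of all its peaks. By number of hotspots, 14 of 43 (32.6%) and 23 of 72 (31.9%) of the cluster were at the ceiling, beside 37.8% and 35.9% of all hotspots. Their distance to the nearest peak of replicate 1 ranged from 160 to 6160 bp with a median of 780 bp, and 16 were within 500 bp.

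The shared peaks of the cluster were ordered alike by signal in both libraries, with a Spearman rho of 0.903 over the 39 regions. Their median signal was 82 in replicate 1 and 80 in replicate 2, where all peaks had medians of 47 and 39. As ranks within their own list, the median percentiles were 84.5 and 87.1. The same rho was 0.868 over 72 centromeric and 0.863 over 125 telomeric regions. These are correlations across regions of the same pair of libraries and not across replicates. By rank within their own list, 19 shared cluster peaks stood higher in replicate 1 and 20 in replicate 2. The same counts were 39 and 33 in the centromeric and 77 and 48 in the telomeric landscape. The split was thus nearly even in the cluster and leaned to replicate 1 in the landscapes, a difference that was not tested.

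**Figure D2:**
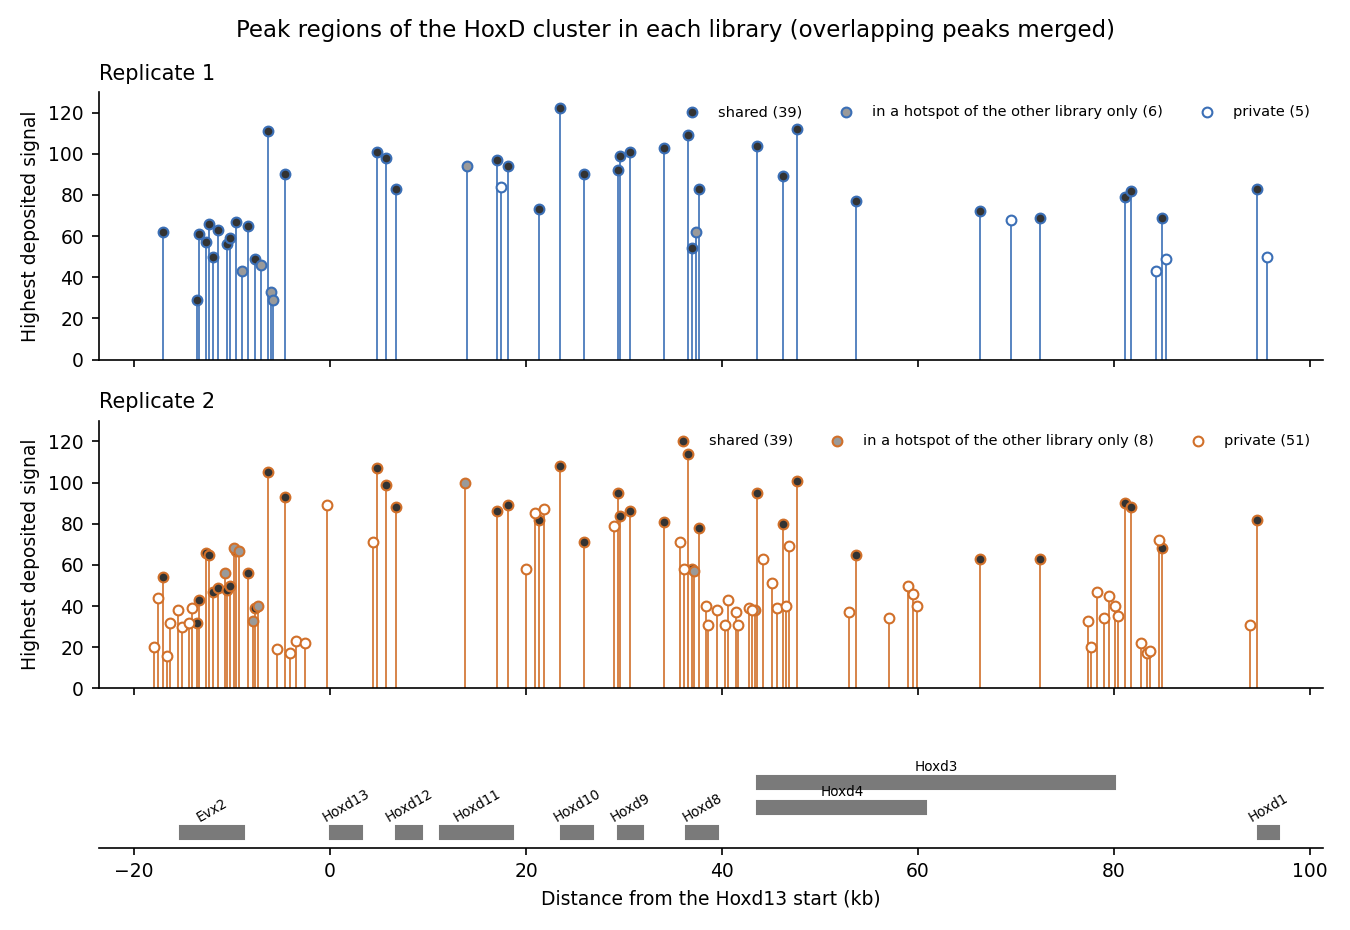
Peak regions of the HoxD cluster in replicate 1 (top) and replicate 2 (middle), with the highest deposited signal of each region (vertical axis) against distance from the Hoxd13 start in kb; bars below are annotated genes. Overlapping peaks were merged into 1 region. Filled points are shared (39), grey points lie in a hotspot of the other library alone, and open points are private, 5 regions in replicate 1 and 51 in replicate 2, most of them near Evx2 and from Hoxd8 to Hoxd1.

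The extra peaks of replicate 2 were spread unevenly along the cluster, as the map of cluster peak regions shows. From the Hoxd8 start to the Hoxd1 start replicate 1 had 18 peaks and replicate 2 had 51, a ratio of 2.83, and 35 of the 51 were private. From the Hoxd13 start to the Hoxd8 start the counts were 14 and 23, a ratio of 1.64, and from the centromeric edge across Evx2 to the Hoxd13 start they were 19 and 32, a ratio of 1.68. The stretch of the anterior genes carried 33 of the 54 additional peaks, and it takes up 58.4 kb of the 120 kb. The stretch across Evx2 gained 13 peaks in 18.3 kb, and that from Hoxd13 to Hoxd8 gained 9 in 36.3 kb. The larger number at the anterior genes thus goes with a longer stretch. Whether the ratios of these stretches differ was not tested. Intervals were also cut at the 5′ ends of the annotated gene spans, which for Hoxd11 (chr2:74679557) lies before its protein-coding start (chr2:74682323). The count of replicate 2 was higher in 8 of 10 and equal at 0 from Hoxd12 to Hoxd11. It was lower from Hoxd1 to the telomeric edge, with 1 peak in replicate 1 and 0 in replicate 2.

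Regions found in replicate 2 alone numbered 59 in the cluster, beside 39 shared regions, so some runs of them arise in any order. They fell into 24 runs uninterrupted by a region of replicate 1, and 4 runs of 5 or more held 28 of them. Whether they were grouped more than in a random order was not tested. The longest run, chr2:74706616-74711745, had 10 regions from a coding exon of Hoxd8 to just before the annotated spans of Hoxd3 and Hoxd4 begin, with signals from 31 to 43. A run of 7 at chr2:74745576-74748785 ran from an intron of Hoxd3 into a noncoding exon of Haglr, with signals from 20 to 47. The third, of 6 regions at chr2:74651616-74654285, began beyond the 3′ end of Evx2 and ran into it, with signals from 16 to 39. The fourth, of 5 regions at chr2:74664116-74672845, surrounded Hoxd13, with signals from 17 to 89. The median signal of each of the 4 runs lay below the library median of 39, and only the run around Hoxd13 held a signal above 47.

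The member genes are taken in their order from the centromeric end. A promoter peak is one centred within 1 kb of an annotated protein-coding start. Members have from 1 to 5 such starts (Hoxd3), and peaks at every start of a gene are counted. By this measure 9 of 10 members had a promoter peak in replicate 1, 10 in replicate 2 and 8 a shared one, where 68.4%, 68.7% and 66.8% of all protein-coding genes did. Replicate 2 had more promoter peaks than replicate 1 at 7 members, an equal number at 3 and fewer at none. In gene bodies replicate 2 had more at 4 members, fewer at 2 and an equal number at 4. The same counts were not made over all protein-coding genes, so how unusual they are is not known. Members differ in their number of starts, and the bodies of Hoxd3 and Hoxd4 overlap. The plot of peaks per gene gives these counts.

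**Figure D3:**
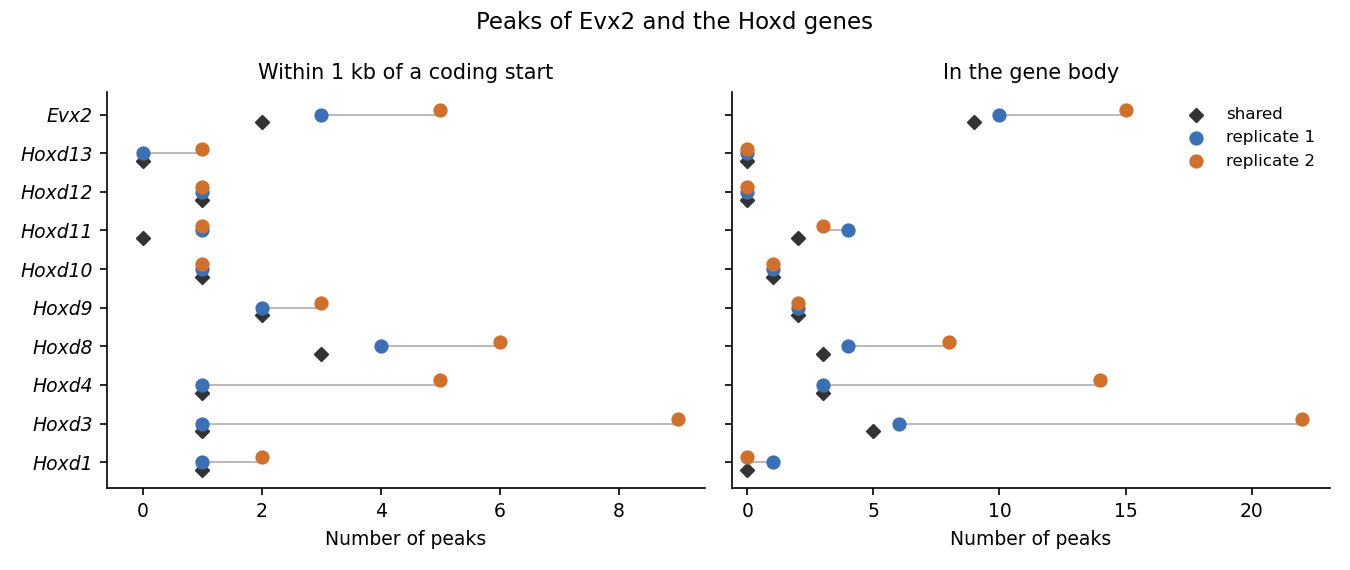
Number of peaks (horizontal axes) within 1 kb of a protein-coding start (left) and in the gene body (right) for Evx2 and the 9 Hoxd genes, in replicate 1, replicate 2 and shared. Lines join the libraries: Hoxd3, with 5 annotated starts, has 1 and 9 promoter peaks and 6 and 22 body peaks, while Hoxd12 and Hoxd10 have equal counts.

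Evx2 encodes an even-skipped type homeodomain factor expressed with Hoxd13 in the distal limb. Its body, chr2:74652991-74659557 on the reverse strand, was the most open of the members. Replicate 1 had 10 body peaks with signals from 29 to 67 and replicate 2 had 15 with signals from 30 to 68, and 9 were shared. Hotspots covered 72.6% of the body in replicate 1 and 100% in replicate 2. In replicate 2 the cover was a single hotspot of 8648 bp, chr2:74651695-74660342, wide enough that 0.00139% of hotspots of that library reach its width. Replicate 1 had 4 separate hotspots there, which overlapped it over 5552 bp. The widest of replicate 1 was 3215 bp (chr2:74657128-74660342), and 0.0831% of its hotspots were as wide. Evx2 was thus covered densely in both libraries, with no peak above a signal of 68, while the promoter peaks of most Hoxd genes had signals above that.

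Of 4 shared peaks between the starts of Evx2 and Hoxd13, the strongest lay at chr2:74661896-74662045, with signals of 111 and 105. Its sequence holds an E-box and a HOX13-type word. This peak ranked among the 3 strongest shared peaks of the cluster and was 2414 bp upstream of Evx2. A further shared peak at chr2:74663656-74663805 had signals of 90 and 93.

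Hoxd13 patterns the digits and is the most distally used gene of the cluster. Its body, chr2:74668310-74671599, held no peak in either library, and no hotspot. Replicate 1 had no promoter peak, and its nearest peak was 4579 bp from the start. Replicate 2 had 1 promoter peak with a signal of 89, centred 319 bp upstream of the start in a hotspot of 239 bp with a −log10 q of 2.24. That peak had the highest signal of all private cluster peaks of replicate 2, at the 90.5 percentile of its list. A promoter peak in replicate 2 alone was found for 1.67% of all protein-coding genes, and one in replicate 1 alone for 1.28%.

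Hoxd12, a distal limb gene beside Hoxd13, had 1 promoter peak in each library at nearly the same place, with signals of 83 and 88. Shared peaks also lay 1042 and 1882 bp upstream, with signals of 98 and 99 at the nearer and 101 and 107 at the farther. Its body held no peak centre.

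Hoxd11 patterns the forearm and digits. Each library had 1 promoter peak, with a signal of 94 in replicate 1 (chr2:74682196-74682345) and 100 in replicate 2 (chr2:74681956-74682105). The peaks did not overlap, so none is counted as shared, but each lay in a hotspot of the other library. In the body replicate 1 had 4 peaks and replicate 2 had 3, 2 of them shared. The strongest private peak of replicate 1 in the cluster was here too, with a signal of 84 at chr2:74685656-74685805 in a noncoding exon of Hoxd11.

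Hoxd10, used in the limb and lumbar spinal cord, had the strongest shared peak of the cluster at its promoter, with signals of 122 and 108. Its body held 1 shared peak, with signals of 90 and 71. Upstream, within the noncoding transcript Gm28309, replicate 2 had private peaks with signals of 85 and 87 at chr2:74689196-74689345 and chr2:74690056-74690245. They flanked a shared region with signals of 73 and 82, so strong private peaks stood beside a site open in both libraries.

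Hoxd9, which acts in the proximal limb, had 2 promoter peaks in replicate 1 and 3 in replicate 2, and 2 were shared, with a highest signal of 99 and 95. The peak in replicate 2 alone lay 476 bp upstream with a signal of 79. Both body peaks of each library were shared.

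Hoxd8 had 4 promoter peaks in replicate 1 and 6 in replicate 2, of which 3 were shared, and its strongest had signals of 109 and 114. In the body the counts were 4 and 8, and hotspots covered 32.3% and 69.5% of it. Between Hoxd9 and Hoxd8 lay a shared peak at chr2:74702296-74702465, with signals of 103 and 81. Hoxd8 opens the stretch with the highest ratio of replicate 2 to replicate 1 peaks among those compared (2.83).

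Hoxd4 and Hoxd3, genes of the early and anterior part of the Hox order, have annotated spans that begin 2 bp apart and overlap, so their body counts share peaks and are not independent. Hoxd4 had 1 promoter peak in replicate 1 (signal 77) and 5 in replicate 2 (highest signal 65), and 1 was shared. Its body held 3 and 14 peaks, 3 of them shared. Hoxd3 had 1 promoter peak in replicate 1 (signal 104) and 9 in replicate 2 (highest signal 95), with 1 shared. Hoxd3 has 5 annotated protein-coding starts and Hoxd4 has 2, so these counts cover more windows than at a member with 1 start. Some of the 9 lie at the Hoxd3 start at chr2:74745674, near the 3′ end of its span. Its body held 6 and 22 peaks, 5 of them shared. Nearly every peak of replicate 1 in these genes was thus present in replicate 2, which added 8 promoter peaks at Hoxd3 with signals from 20 to 63. At the 3′ end of Hoxd3 replicate 2 had a hotspot of 2564 bp, chr2:74746268-74748831, with 5 peaks, where replicate 1 had no hotspot. Hotspots covered 3.44% of the Hoxd3 body in replicate 1 and 22.6% in replicate 2.

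Hoxd1, at the telomeric end, had a shared promoter peak with signals of 83 and 82. Replicate 2 added a peak 769 bp upstream with a signal of 31. Replicate 1 had a private body peak with a signal of 50, and replicate 2 had none there.

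At the 8 members with a shared promoter peak, the highest promoter signals ran from 67 (Evx2) to 122 (Hoxd10) in replicate 1 and from 65 (Hoxd4) to 114 (Hoxd8) in replicate 2. At Evx2 the highest of replicate 2, 68, was a peak that overlapped none of replicate 1.

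Noncoding genes of the cluster varied in the same counts. Hoxd3os1, transcribed against Hoxd3, had 2 promoter peaks in replicate 1 and 9 in replicate 2, with 7 and 26 peaks in its body. Haglr, which starts near Hoxd1 on the opposite strand and runs away from it, had 6 and 7 promoter peaks and 6 and 12 body peaks. Gm14424 had 4 and 6 promoter peaks with 1 shared, and Gm28793 had 2 and 3 with 2 shared, while Gm14426 had 1 and 0. The predicted coding gene Gm28230, which overlaps Hoxd3 and has no annotated protein-coding start in the set used, had 3 and 10 body peaks. Mir10b, a microRNA gene in the same stretch, had 0 and 1 peak near its start. DNase-seq does not mark strand, so a peak in overlapping genes cannot be given to either.

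The genes of the centromeric landscape are Atp5g3, which encodes a subunit of ATP synthase, and Lnpk, which encodes a protein of the endoplasmic reticulum. Both had 2 shared promoter peaks, with highest signals of 114 and 114 at Atp5g3 and of 117 and 115 at Lnpk. Away from gene starts the strongest shared peak was chr2:74451736-74451905, 216 kb from the Hoxd13 start, with signals of 111 and 95. The plot of peaks per 20 kb shows the tiles of both landscapes. The fullest tile of 20 kb, chr2:74260001-74280000, held 9 and 10 peaks and 8 shared, and 0.445% of 136267 tiles held as many. Of 38 tiles 8 held no shared peak, among them the last, which is cut at the cluster and shorter than 20 kb. Over all full tiles of 20 kb 58.2% held none. The longest stretch without a shared peak was 41.3 kb. From the outer edge to Lnpk the density was 10.3 shared peaks per 100 kb, and from the Lnpk start to the cluster it was 4.25.

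That last stretch was also the part of the centromeric landscape in which replicate 2 had more peaks, with 7 in replicate 1 and 11 in replicate 2. A hotspot of 2348 bp at chr2:74647964-74650311, with 5 peaks and a −log10 q of 4.92, was called in replicate 2 and overlapped no hotspot of replicate 1. It crosses the boundary set for the cluster by 311 bp, and 1 of its 5 peaks is counted in the cluster. The strongest private peak of replicate 1 in the landscape, at chr2:74620496-74620645, had a signal of 57, below the strongest private peaks of the cluster.

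**Figure D4:**
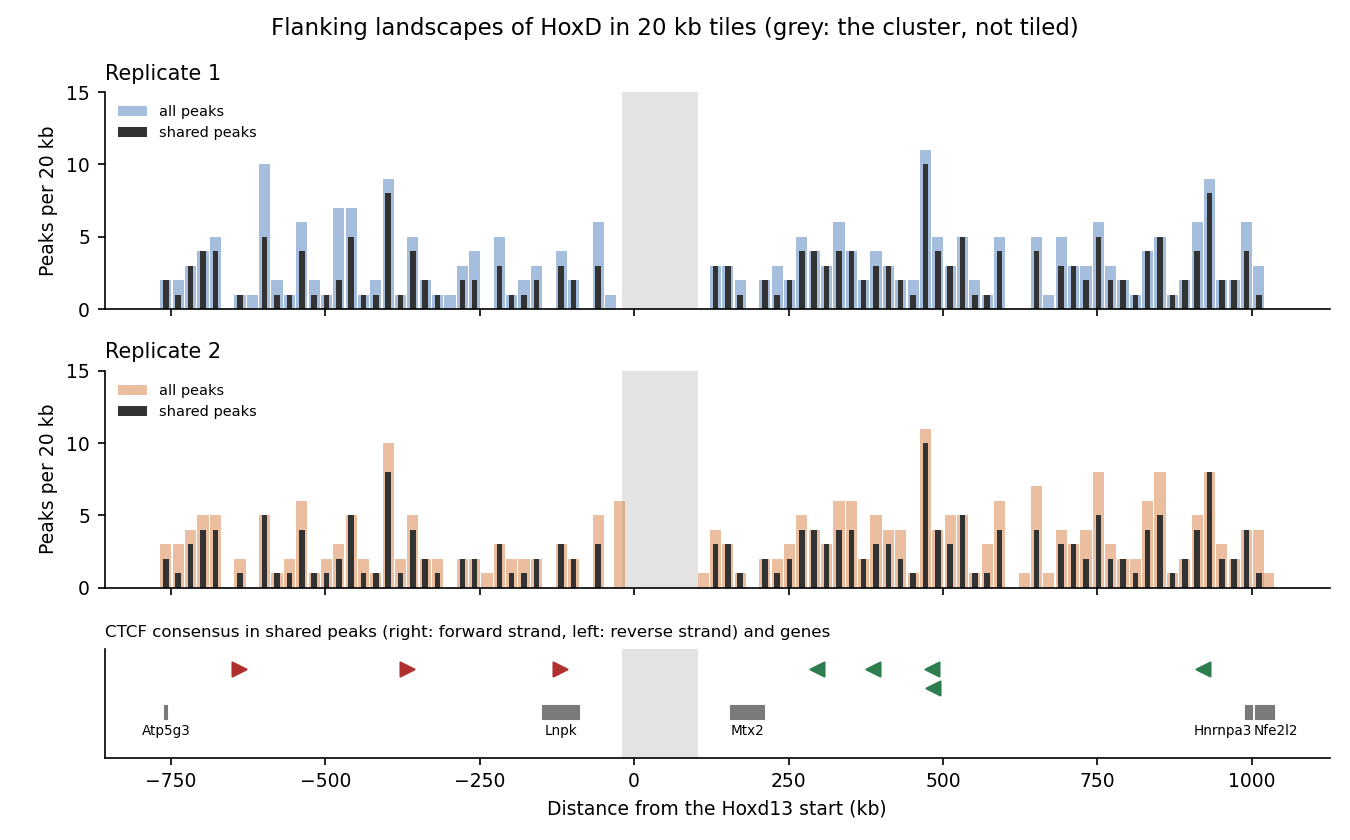
Peaks per tile of 20 kb (vertical axes) in replicate 1 (top) and replicate 2 (middle) against distance from the Hoxd13 start in kb, with shared peaks in dark bars and the cluster in grey. The last tile of each landscape is shorter than 20 kb. Below, arrowheads mark CTCF consensus matches in shared peaks, 3 pointing right (forward strand) before the cluster and 5 pointing left (reverse strand) after it, above the annotated coding genes.

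The telomeric landscape held more peaks per length in both libraries than the centromeric one. Mtx2, which encodes a mitochondrial outer membrane protein, had 2 shared promoter peaks, with a highest signal of 107 in each library. Hnrnpa3, which encodes an RNA-binding protein, had 4 and 2 promoter peaks with 2 shared and highest signals of 135 and 136, the highest of the window. Nfe2l2, which encodes the oxidative stress factor NRF2, starts beyond the outer edge of the window, where it had 3 and 2 promoter peaks that are not among the regions counted here, with 2 shared and highest signals of 124 and 116. Between the end of Mtx2 and the start of Hnrnpa3, a desert of 781 kb, replicate 1 had 137 peaks, replicate 2 had 154, and 115 were shared (14.7 per 100 kb). Next to the cluster, up to the Mtx2 start, the counts were 4, 6 and 4, or 7.17 shared per 100 kb. The Mtx2 body held 5.70 shared peaks per 100 kb and the stretch from the Hnrnpa3 start to the outer edge 7.36, so within this landscape the shared peaks were densest in the desert between these genes.

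The fullest tile of the telomeric landscape, chr2:75130001-75150000, held 11 peaks in each library and 10 shared, and 0.187% of tiles of 20 kb held as many. It lies 472 kb from the Hoxd13 start and holds the divergent starts of the noncoding genes Gm13652, with 3 shared promoter peaks, and 2600014E21Rik, with 2. The body of 2600014E21Rik, chr2:75138843-75317820, held 30 and 36 peaks and 26 shared. Of 47 tiles 6 held no shared peak, among them the last, which is cut at the window edge and shorter than 20 kb. The longest gap was 42.8 kb. The strongest shared peak away from coding starts, chr2:74964476-74964625, had signals of 117 and 95 and holds match T1 and an E-box.

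The window was divided by where its genes lie, so the shares of promoter and intergenic peaks and the base composition that goes with them partly follow from that division. Median GC was 45.3% in the centromeric landscape, 58.7% in the cluster and 48.7% in the telomeric landscape, beside 51.3% over all shared peaks. The ratio of observed to expected CpG had medians of 0.334, 0.75 and 0.323, beside 0.314 over all. Away from promoters, median GC was 45.3%, 55.3% and 48% over 68, 27 and 121 shared peaks, and the CpG medians were 0.301, 0.748 and 0.3125, beside 49.3% and 0.248 over all such peaks. In the cluster 12 of 39 shared peaks were promoter peaks (30.8%, beside 23.4% over all) and 7 were intergenic. Of the centromeric shared peaks 60 of 72 were intergenic (83.3%), and of the telomeric ones 87 of 125 (69.6%), beside 34.2% over all. Shared peaks of the cluster overlapped repeat-masked bases less often by count, 8 of 39 (20.5%) beside 40.7% over all, and this difference was not tested.

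CTCF consensus matches were no more frequent than elsewhere, and their strands divided by side. The exact 14-base consensus, searched on both strands in the central 150 bp, was in 3 of 72 centromeric shared peaks (4.17%, interval 0.868% to 11.7%), 0 of 39 cluster peaks (upper bound 9.03%) and 5 of 125 telomeric peaks (4%, interval 1.31% to 9.09%). Over all shared peaks the share was 4.01%, and over those away from promoters 5.01%. All 3 centromeric matches lay on the forward strand and all 5 telomeric matches on the reverse strand, so every match pointed to the cluster, where 49% of 4738 peaks with a single match genome-wide had it on the forward strand. With 8 matches this is a description.

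Each of the 8 was open in both libraries. C1 had signals of 87 and 67, C2, in a noncoding exon of 4930441J16Rik, 90 and 88, and C3, in a coding exon of Lnpk, 48 and 33. T1 had signals of 117 and 95, and T2 of 78 and 68. T3 and T4, which lie near each other within 2600014E21Rik, had signals of 72 and 49 and of 85 and 69. T5, 922 kb from the Hoxd13 start, had signals of 110 and 92. The weakest of the set was C3, the match closest to the cluster.

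The consensus was also searched with up to 1 mismatch, a choice made after the exact matches had been seen. This gave 5, 1 and 8 shared peaks in the order along the chromosome, or 14 of 236 (5.93%, interval 3.28% to 9.75%), beside 13.2% of all shared peaks and 16.1% of those away from promoters. In shared peaks all 5 centromeric matches were then on the forward strand, and of 8 telomeric matches 7 were on the reverse strand and 1, at chr2:75605885-75605898, on the forward strand, beside 49.4% on the forward strand over all shared peaks with a single such match. A private peak of replicate 1 in the centromeric landscape added a match on the reverse strand. The only match of the cluster, at chr2:74702395-74702408 between Hoxd9 and Hoxd8, was on the forward strand, in the shared peak with signals of 103 and 81. A looser form that keeps only the core letters of the consensus was in 3, 2 and 9 shared peaks, or 5.93% of the window beside 14.5% of all shared peaks and 16% of those away from promoters. Both relaxed searches thus gave a lower share in the HoxD window than over all shared peaks.

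Other words were counted in the same 150 bp windows on both strands. The HOX13-type word CAATAAA was in 7 of 72 centromeric (9.72%, interval 4.0% to 19%), 4 of 39 cluster (10.3%, interval 2.87% to 24.2%) and 4 of 125 telomeric shared peaks (3.2%, interval 0.879% to 7.99%), beside 3.29% of all and 3.98% of those away from promoters. The word TGATTNAT, of the kind bound by Hox proteins with their PBX partners, was in 2, 4 and 3 (2.78%, 10.3% and 2.4%), beside 2.83% of all and 3.48% of those away from promoters. The E-box CAGCTG was in 13, 5 and 19 (18.1%, 12.8% and 15.2%), beside 15.1% of all and 16.6% of those away from promoters. The intervals of the HOX13-type share in the centromeric landscape and of the TGATTNAT share in the cluster (2.87% to 24.2%) began just above the shares over all shared peaks, and the other 7 intervals included them. Set beside shared peaks away from promoters, that TGATTNAT interval included the share of 3.48%. The centromeric HOX13-type interval began at 4.0%, about level with 3.98%. No adjustment was made for the 9 shares, none of the words contains another, and a match is a description and not a site.

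The other Hox clusters gave the nearest comparison. Taken from the lowest to the highest annotated base with 10 kb added on both sides, HoxD had 52 and 111 peaks, a ratio of 2.13. HoxA, whose posterior genes act with those of HoxD in the limb, had 121 and 124, a ratio of 1.02. HoxB had 51 and 67, a ratio of 1.31, and HoxC had 49 and 71, a ratio of 1.45. Hotspot length was higher in replicate 2 at all 4, by 2.40 times at HoxD, 1.36 at HoxA, 1.73 at HoxB and 1.96 at HoxC. Private shares in replicate 2 were 56.8%, 35.5%, 44.8% and 53.5% in the same order, each above the 22.7% over all its peaks. HoxD had the highest ratio of the 4, and whether it differs from HoxC was not tested.

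Paralogues of the distal members did not all behave as Hoxd13 did. Hoxa13, the partner of Hoxd13 in the digits, had 2 promoter peaks in each library, with highest signals of 91 and 102 and 1 shared. Hoxc13 had 2 and 3 with highest signals of 101 and 110, and Hoxb13 had 1 in each with signals of 71 and 65. Hoxa11 had 3 and 2 with highest signals of 96 and 86. Evx1, the paralogue of Evx2 beside HoxA, had no promoter peak in replicate 1 and 3 in replicate 2. Hoxd13 was thus the only group 13 gene of the 4 clusters without a promoter peak in replicate 1. Of the whole lists, 11 of 12 HoxA genes, 7 of 10 HoxB genes, 5 of 9 HoxC genes and 8 of 10 HoxD genes had a shared promoter peak, beside 66.8% of all genes. At HoxC the number with any promoter peak was 5 in replicate 1 and 9 in replicate 2. Of 15 regulators of limb Hox genes and Hox cofactors, among them Gli3, Hand2 and the PBX and MEIS genes, 14 had a shared promoter peak, and Shh had 3 promoter peaks in replicate 2 alone.

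Some markers of other cell types differed between the libraries, in large part through single genes. For 8 genes of the tail bud and trunk mesoderm, 3 had a promoter peak in replicate 1 and 6 in replicate 2, and peaks within 100 kb numbered 237 and 329, a ratio of 1.39. Cdx2 (15 and 63) and Uncx (15 and 62) carried this rise, the other 6 genes had 207 and 204, and 3 of the 8 had fewer in replicate 2. T, Cdx2 and Uncx had no promoter peak in replicate 1 and 6, 3 and 5 in replicate 2, while Cdx1 and Msgn1 had none in either. For the 2 hindlimb genes the counts within 100 kb were 98 and 133, a ratio of 1.36, with 54 and 94 at Tbx4 and 44 and 39 at Pitx1, so the genes moved in opposite directions. For the forelimb gene Tbx5 they were 70 and 55, a ratio of 0.786. The ratio was 0.982 for limb mesenchyme, 1.27 for limb ectoderm, 1.21 for genital tubercle and cloaca, 1.06 for neural tube, 1.5 for 3 heart genes, 0.744 for liver and 1.13 for erythroid genes. The ectoderm ratio rested on Dlx5 (31 and 74, the other 6 genes 167 and 178) and the heart ratio on Nkx2-5 (17 and 41, the other 2 genes 37 and 40). For genital tubercle and cloaca the largest difference was at Shh (12 and 24, the other 4 genes 69 and 74). The ratios near 1 held opposite moves. In limb mesenchyme Lhx2 had 64 and 27, and the other 9 genes 393 and 422. In neural tube Olig2 had 51 and 23, and the other 4 genes 145 and 185. Promoter peaks were found at 5 of 5 neural tube genes in both libraries. Their part in the difference at HoxD was not tested. Hotspots of at least 1 kb held 11 of 52 cluster peaks in replicate 1 (21.2%) and 41 of 106 in replicate 2 (38.7%), beside 14.4% and 17.7% of all peaks. By number such hotspots were 3 of 43 (6.98%) and 7 of 72 (9.72%) in the cluster, beside 5.95% and 8.11% of all hotspots. Without the peaks in them the ratio in the cluster was 1.59, a setting added after the data had been seen.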

How the data were processed

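Peaks and hotspots of 2 DNase-seq libraries of limb tissue were used. Regions were called per library on reads aligned to mm10, per the deposited file descriptions, with aligner and caller not given in the sources used here. Deposited peaks are intervals of 150 bp with a signal, a whole number from 2 to 149 on the named chromosomes whose scaling the authors do not state in those sources. The deposited hotspots carry a −log10 q from 1.30 to 6 and then 100, read as a ceiling. No list holds read counts, so depth is unknown.

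Regions on the 21 named chromosomes were placed by their centre. Overlap meant at least 1 bp, and a shared peak is the merged region where peaks of both libraries overlap. Starts and classes came from GENCODE M21 and sequences from RefSeq GRCm38.p6. Tiles are windows of the same length laid along the chromosomes. Intervals of shares are exact binomial (Clopper-Pearson). No test was made, since there is a single group. Named were the 10 members, every other coding gene of the window, noncoding genes with a shared promoter peak, the 3 strongest shared and private peaks and widest hotspots of each compartment, and paralogues of the distal members; Mir10b, Shh, T, Cdx2, Uncx, further shared peaks beside members and other list genes were named after their values were seen. Members, lists and boundaries were chosen with earlier results of these data known. Overlap, shared regions, start distances and consensus search were tested on simulated data. Alternatives changed the overlap, peak threshold, cluster bounds, promoter window and consensus, and left out each replicate or member. Python 3.11.15, NumPy 2.4.6, pandas 2.3.3, SciPy 1.17.1 and Matplotlib 3.10.9 were used.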

Additional observations from a re-analysis of the deposited data

How the results depend on the processing

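Of the alternative values of results that answer a comparison, 55 lay within a set tolerance of the reported value, which is a factor of 1.5 for counts and the 95% interval for ratios and shares, and 4 did not. The tolerance is wide. Values set against the shared peaks of the centromeric landscape ran from 51 to 107 within it, where 107 counts all peaks of replicate 1 alone. Values for the cluster ran from 26, with hotspots in place of peaks, to 52, all peaks of replicate 1 alone. With only peaks at or above the median signal of their library, shared peaks numbered 38 in place of 72 in the centromeric landscape and 81 in place of 125 in the telomeric landscape. Taking 1 library alone gave 52 to 106 peaks in the cluster where 39 were shared; the count without replicate 1 was 106. The private share of replicate 1 in the cluster was 25% in place of 11.5% when hotspots of the other library were not considered. The ratio of 2.04 in the cluster ran from 1.59 to 2.17 over all alternatives, 1.66 with peaks at or above the median signal, 1.85 with the 100000 strongest peaks, 1.67 with hotspots and 1.96 over the annotated span. Of the promoter counts of single genes, 12 moved and 48 did not. No paired analysis was possible because the series has a single group. Unknown depth, unstated signal scaling and 1 library on each side limit all of these values.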
